A study of Danio rerio with 14 samples.

Results

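The genes described here are the nuclear genes of oxidative phosphorylation in the zebrafish ventricle. They were chosen by name, as every row of the gene table whose symbol starts with nduf, sdha to sdhd, uqcr, cox4 to cox8 or atp5, which gave 103 of 39289 features. Sorted by known role, 91 of them were counted as subunit genes of the 5 complexes, with 38 in complex I, 5 in complex II, 8 in complex III, 24 in complex IV and 16 in complex V. The 38 include ndufa9b, which is annotated as a pseudogene. A further 11 encode assembly factors, 7 for complex I and 4 for complex II, and atp5s encodes a regulator of ATP synthase. The ndufa4 family carries a complex I name but was placed in complex IV, where its protein is now assigned. The table held 0 protein-coding rows of the mitochondrial genome, so the subunits encoded in mitochondria were not analysed here.

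In oxidative phosphorylation, complex I (NADH dehydrogenase) and complex II (succinate dehydrogenase) pass electrons to ubiquinone, complex III hands them to cytochrome c, and complex IV (cytochrome c oxidase) reduces oxygen with them. Complexes I, III and IV pump protons across the inner mitochondrial membrane, and complex V (ATP synthase) uses the gradient to make ATP. The heart depends on this pathway for most of its ATP, and several complex IV subunits exist as a heart and muscle form and a form made in other tissues.

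RNA was sequenced from ventricles dissected from adult zebrafish of the TL1 strain. Each library was a pool of up to 7 ventricles. The groups were non-transgenic fish (NTG; labelled wild-type) and 3 transgenic lines that carry human TMEM43, linked to eGFP, under the myl7 promoter, which drives expression in cardiomyocytes: the wild-type protein (TMEM43-WT), TMEM43-P111L and TMEM43-S358L. Each transgene was carried by 1 line of incrossed fish, so a line and its insertion cannot be told apart. NTG had replicates 2, 3 and 4, from fish of 5, 5 and 21 months. TMEM43-WT had replicates 1, 4, 5 and 6, from fish of 5, 18, 20 and 19 months. TMEM43-P111L had replicates 2, 3 and 4, from fish of 5, 20 and 19 months, and TMEM43-S358L had replicates 1, 2, 3 and 4, from fish of 5, 5, 5 and 19 months. Genotype and age were therefore unevenly crossed, and the study's text gives 5 months for all fish whereas the labels used here do not.

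Each library held 20621770 to 32418475 reads on genes. A level below is a read count scaled to a common library total (CPM) and by TMM, a factor per library that aligns most genes, and a level set beside that of another gene is CPM per kb of merged exon. The lowest TMM factors were those of TMEM43-WT replicate 1 (0.8243) and TMEM43-S358L replicate 3 (0.8724), and the highest was 1.137. These libraries are named wherever a result rests on them. Of 8 ventricular cardiomyocyte markers, 7 were in the table, 0 of these were at 0 in all libraries, and their summed level ran from 68080 to 78740 CPM in NTG, 56260 to 77180 in TMEM43-WT, 59760 to 71890 in TMEM43-P111L and 65190 to 84680 in TMEM43-S358L. Calls are from edgeR's quasi-likelihood test, with p-values adjusted over the 17437 genes tested, and required both an adjusted p below 0.05 and a log2 fold change no smaller than 0.05 in either direction. Nothing in the labels shows that pools of a group came from separate crosses, so p-values measure the spread between these pools.

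Of the 103 genes, 101 passed the filter on low counts and 85 had at least 1000 reads in every library. The subunit genes held 5.53% to 7.83% of all reads. The genes left out were ndufs8b, a paralogue of the iron-sulphur subunit ndufs8a, with at most 9 reads in a library, and ndufa4l2, of the ndufa4 family, with at most 1 read. In 59 genes at least 1 library had a fractional count, so reads were shared with another place or feature, and 44 had whole counts throughout. Fractional counts were in 14 libraries for sdhc and ndufaf3, 13 for sdhb, 12 for cox5b2 and 10 each for ndufa9a and ndufa9b, its paralogue annotated as a pseudogene.

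Per kb of exon, the subunits of complexes IV and V stood above those of complexes I to III, and each complex held genes over a wide range of levels. The median of the mean levels was 402 CPM per kb in complex I, 316 in complex II, 636 in complex III, 1310 in complex IV and 1500 in complex V. More than 1000 CPM per kb were reached by 3 of 38 genes in complex I, 0 of 5 in complex II, 3 of 8 in complex III, 13 of 24 in complex IV and 11 of 16 in complex V. In complex I the highest was ndufb8, an accessory subunit of the membrane arm, at 1047 CPM per kb (772 to 1394 over the 14 libraries), and the lowest tested was ndufa9b at 45.9. In complex II the highest was sdhb, the iron-sulphur subunit, at 499.3 and the lowest sdhda, a membrane anchor, at 5.01. Its paralogue sdhdb was at 79.7, so that both anchors of the D type lay below sdha, sdhb and sdhc.

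**Figure D1:**
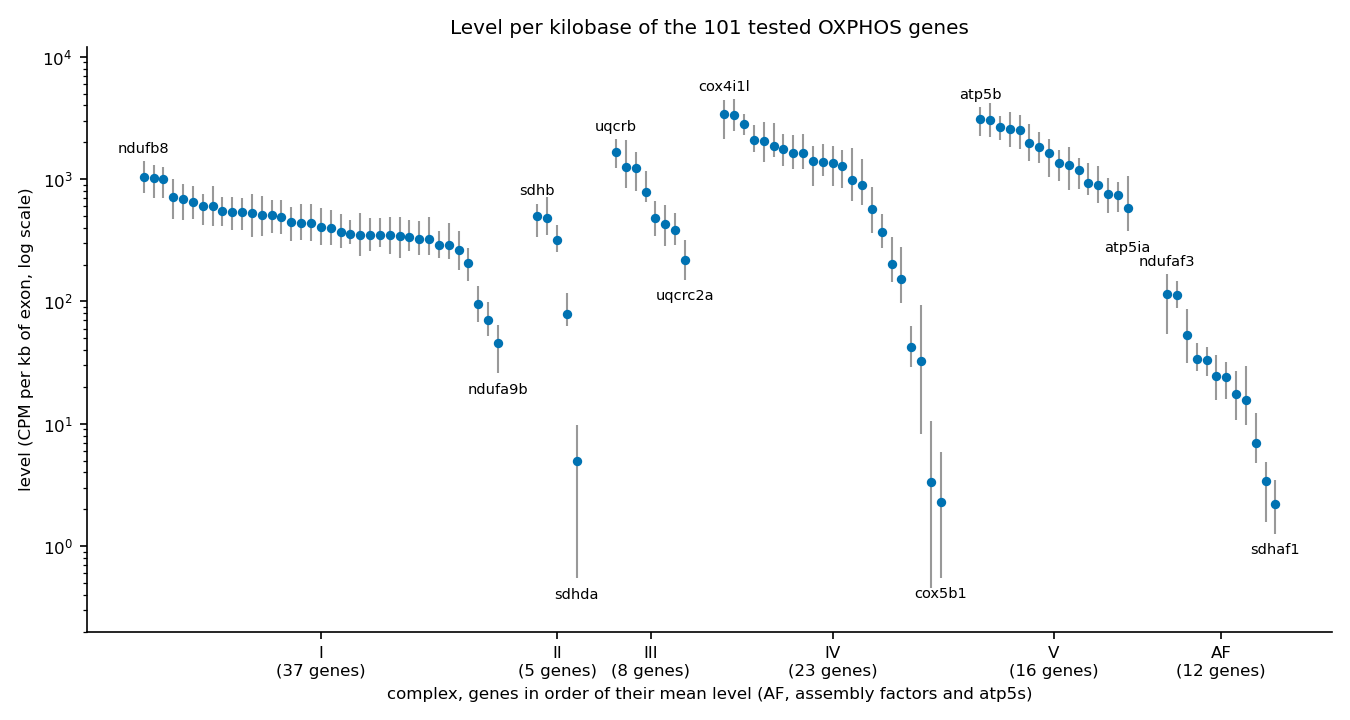
Mean level of each of the 101 tested genes in CPM per kb of merged exon (log axis), grouped by complex and ordered by level within it; AF holds the assembly factors and atp5s, and the grey line spans the lowest and highest of the 14 libraries. Complexes IV and V have the highest levels, led by cox4i1l at 3372 and atp5b at 3077, and the assembly factors lie between 2.21 and 115.1.

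In complex III the highest was uqcrb, a small subunit, at 1659 CPM per kb, and the lowest was uqcrc2a, a core protein, at 219.4. In complex IV the highest was cox4i1l, a form of subunit IV, at 3372, closely followed by cox6a2, the heart and muscle form of subunit VIa, at 3363, with ranges of 2120 to 4463 and 2489 to 4472 that overlapped almost entirely. The lowest tested complex IV gene was cox5b1 at 2.28. In complex V the highest was atp5b, the catalytic beta subunit, at 3077, and the lowest subunit was atp5ia, a copy of subunit e of the membrane part, at 584.7. The genes atp5b and atp5a1, which encode the beta and alpha subunits of the catalytic head, together led the pathway in reads, with 8.77% and 7.45% of the summed subunit CPM. The 11 assembly factors, which help to build the complexes and are not part of them, ran from 2.21 (sdhaf1) to 115.1 (ndufaf3) CPM per kb with a median of 24.3, and atp5s was at 33.8.

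Where subunits had paralogues, 1 copy usually held most of the family's level per kb. In the cox5b family cox5b2 held 99.7% to 100% in every library, and in the cox6a family cox6a2, the heart and muscle form, held 92.5% to 95.9%. In the cox7a family cox7a1, the muscle form, held 63.4% to 74.0%, followed by cox7a3 at 17.5% to 24.7% and cox7a2a at 6.25% to 11.6%. A later RefSeq annotation names cox7a3 as cox7a2l. It was grouped here by its name, and whether it acts as a form of subunit VIIa was not examined. In the cox8 family cox8b held 71.8% to 80.2%, and in the ndufa4 family ndufa4l held 65.8% to 79.5%. Shares were more even for cox4i1l (54.2% to 67.6%) against cox4i1 (31.9% to 45.5%), for cox5aa (59.0% to 68.7%) and for ndufab1a (45.4% to 53.5%), a copy of the mitochondrial acyl carrier protein that is also a complex I subunit. The only cox7b gene chosen was cox7b itself.

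Some of these shares differed between groups without overlap, which is given as a description because shares were not tested. Those named in this paragraph are examples. Some shares not detailed here also separated, among them cox7a3, at 17.5% to 18.8% in NTG and 21.8% to 24.7% in TMEM43-WT. Others were atp5g1, lower in TMEM43-WT and TMEM43-S358L than in NTG, and ndufab1a, lower in TMEM43-P111L than in NTG. The rest were not all free of overlap. The cox7a1 share was 63.4% to 68.6% in TMEM43-WT and 69.8% to 74.0% in NTG. The sdhdb share was 88.5% to 95.2% in TMEM43-P111L and 88.7% to 94.2% in TMEM43-S358L, against 96.0% to 99.4% in NTG. The share of cox4i2, in mammals the form of subunit IV raised at low oxygen, was 0.531%, 1.66% and 0.808% in the NTG libraries. It was 0.352% to 0.477% in TMEM43-P111L and 0.146% to 0.484% in TMEM43-S358L, all below NTG, while TMEM43-WT at 0.518% to 0.884% overlapped NTG. In the cox6b family the share of cox6b1, a subunit on the intermembrane side, was 52.0% to 55.2% in NTG and 41.9% to 48.8% in TMEM43-WT, and the values of TMEM43-P111L (47.4% to 53.9%) and TMEM43-S358L (48.6% to 54.7%) reached into both ranges. The share of uqcrc2b was 65.2% to 68.8% in TMEM43-S358L against 59.8% to 64.5% over the other 10 libraries. The share of ndufa9a was 89.9% to 92.2% in TMEM43-WT and 87.0% to 89.1% in NTG, its partner being the pseudogene ndufa9b.

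**Figure D2:**
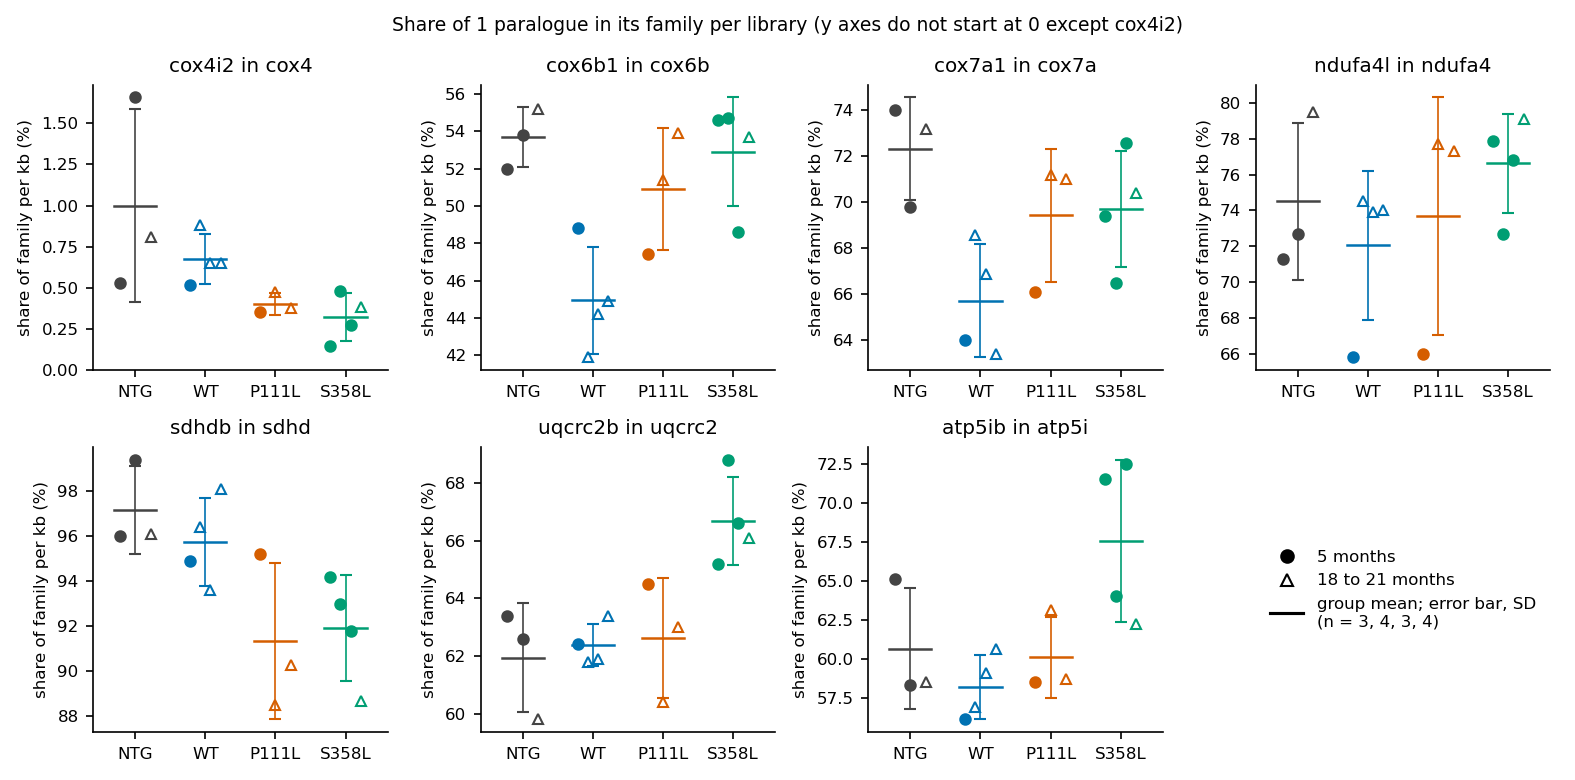
Share of 1 paralogue in the summed CPM per kb of its family in each library; the horizontal line is the group mean and the bar 1 SD, and filled circles are libraries of 5 months, open triangles of 18 to 21 months. The cox4i2 share is lower in TMEM43-P111L and TMEM43-S358L than in all NTG libraries, the cox6b1 share is lowest on average in TMEM43-WT and the uqcrc2b share highest in TMEM43-S358L; the vertical axes other than that of cox4i2 do not start at 0.

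The subunit genes varied together from library to library. The Spearman correlation of a gene with the median log2 level of the other subunits had a median of 0.903 over 89 tested subunits, and 69 of them reached 0.8. Among 2070 other genes averaging 50 CPM or more the median correlation with the same subunit level was 0.125 and 86 reached 0.8. These correlations rest on 14 libraries and on 1 scaling factor per library that all genes share. With total reads in place of TMM the median was 0.820 and 50 subunits reached 0.8. The genes that followed the rest most closely were cox6c at 0.991, ndufs4 at 0.982 and ndufa12 at 0.978. By complex the median was 0.921 in I, 0.516 in II, 0.861 in III, 0.877 in IV and 0.897 in V. Below 0.5 were 7 genes: cox5b1 at -0.08, ndufa4l2a at -0.02, sdhda at 0.06, atp5ia at 0.22, cox4i2 at 0.31, sdha at 0.39 and ndufa4 at 0.48. Of these, cox5b1, ndufa4l2a and sdhda averaged only 1.318, 4.178 and 4.685 CPM, so counting error enters their correlations. The complex II median is over 5 genes, which besides sdhda and sdha are sdhdb at 0.516, sdhb at 0.767 and sdhc at 0.890.

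On the TMM scale, the summed level of the 91 subunits was 78478, 72453 and 72515 CPM in NTG replicates 2, 3 and 4. It was 88166, 54906, 62296 and 49529 CPM in TMEM43-WT replicates 1, 4, 5 and 6. It was 53795, 68161 and 58381 CPM in TMEM43-P111L replicates 2, 3 and 4, and 74946, 61002, 73706 and 55640 CPM in TMEM43-S358L replicates 1 to 4. The highest and the lowest library were thus both TMEM43-WT, at 5 and 19 months, and every group but NTG spread widely, with means of 74482 ± 3461 (SD, n = 3) in NTG, 63724 ± 17115 (n = 4) in TMEM43-WT, 60113 ± 7338 (n = 3) in TMEM43-P111L and 66324 ± 9509 (n = 4) in TMEM43-S358L. The 3 TMEM43-P111L libraries lay below all NTG libraries, and the other lines overlapped NTG. Among the 7 libraries of 18 to 21 months, NTG replicate 4 had a higher median subunit level than each of the 6 transgenic ones. The extremes and the narrow spread of NTG depended on the scaling. As a percent of all reads, the highest library was NTG replicate 2 (7.831%) and the lowest TMEM43-WT replicate 4 (5.528%). On that scale NTG (SD 0.5475) spread more than TMEM43-P111L (SD 0.2675). It spread less than TMEM43-S358L (SD 0.5977) and TMEM43-WT (SD 0.7969). All TMEM43-P111L libraries still lay below every NTG library.

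**Figure D3:**
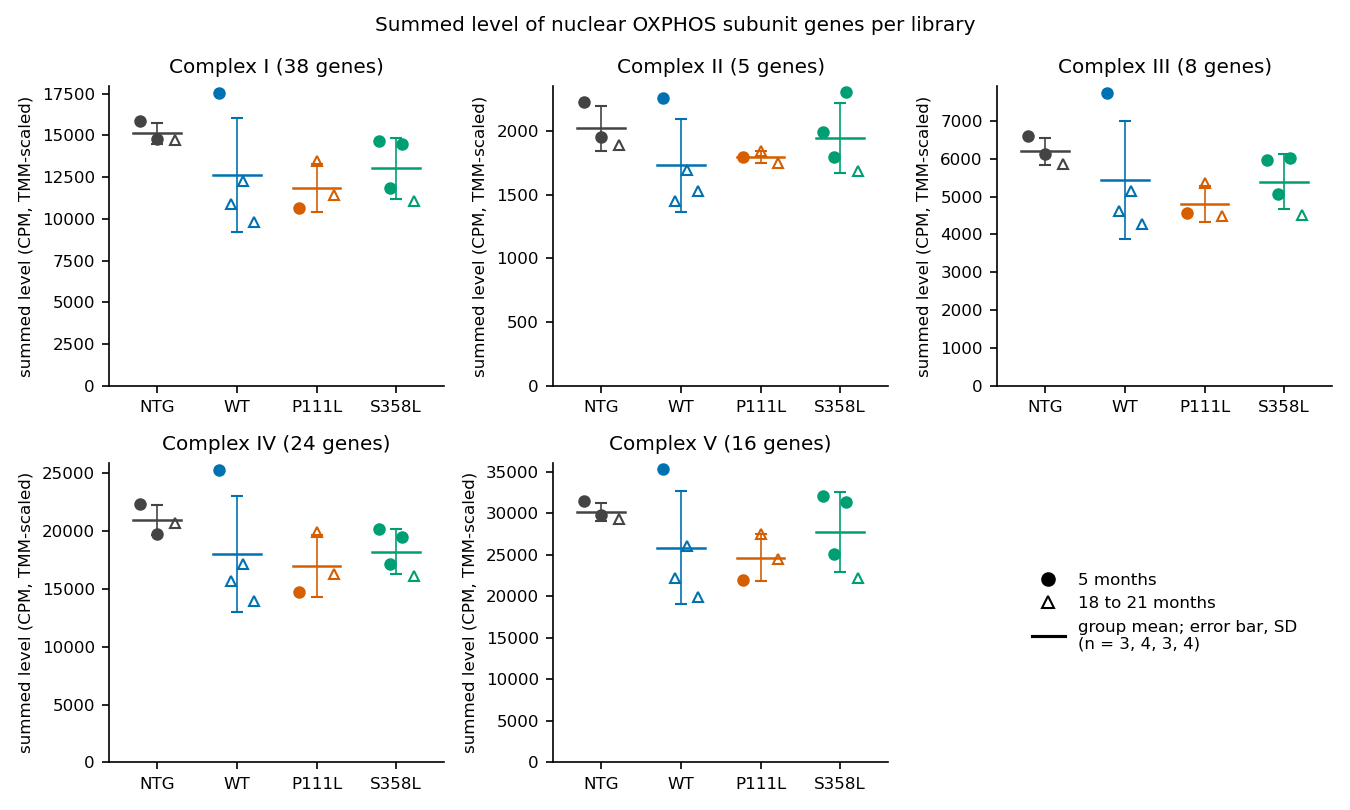
Summed level of the subunit genes of each complex in every library, in CPM scaled by TMM, from 0; the horizontal line is the group mean and the bar 1 SD, and filled circles are libraries of 5 months, open triangles of 18 to 21 months. On this TMM scale, in complexes I, II, III and V the 3 TMEM43-P111L libraries lie below all NTG libraries, the 5-month TMEM43-WT library is the highest in every complex but II, and the ratio of the highest to the lowest library is 1.59 in complex II and 1.77 to 1.81 in the others.

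Complexes I, III, IV and V kept similar shares of the subunit reads, and complex II varied more for its size. The TMM-scaled sum of all subunits ranged 1.78-fold between the libraries, and their percent of all reads ran from 5.53% to 7.83%. Of all subunit reads complex I took 19.4% to 20.4% over the 14 libraries, complex II 2.56% to 3.34%, complex III 7.67% to 8.76%, complex IV 26.5% to 29.2% and complex V 40.0% to 42.9%. The complex I share was 20.3% ± 0.088 (SD, n = 3) in NTG, 19.8% ± 0.0861 (n = 4) in TMEM43-WT, 19.7% ± 0.137 (n = 3) in TMEM43-P111L and 19.6% ± 0.213 (n = 4) in TMEM43-S358L. The lowest NTG library, at 20.2%, was above the highest transgenic one, at 19.9%, a difference that was not tested.

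The median subunit level moved with other measures of the library. Over the 14 libraries its Spearman correlation was 0.846 with the summed cardiomyocyte markers, 0.613 with 6 of 6 fast skeletal muscle markers, 0.407 with fibroblast, 0.231 with erythrocyte, -0.033 with leukocyte, -0.297 with atrial and -0.596 with 5 of 5 endothelial markers. The fast skeletal muscle sum was 3431 to 4877 CPM in NTG, 3159 to 5258 in TMEM43-WT, 3387 to 4519 in TMEM43-P111L and 3133 to 6573 in TMEM43-S358L, and the endothelial sum 464 to 545, 477 to 656, 440.0 to 508 and 357 to 622 CPM in the same order. No marker of these lists was at 0 in all libraries. With the TMM factor it was -0.749, and both quantities come from the same counts. In bulk RNA, fewer cardiomyocytes and less subunit RNA per cardiomyocyte cannot be told apart, and the part of these measures in the differences below was not tested.

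Against NTG, TMEM43-WT called 1 of 101 genes, where 8.34% of all tested genes were called (4.24% lower). It was ndufa9b (chromosome 10, 8128400 to 8129148, minus strand of GRCz11), the ndufa9 pseudogene. Its level was 44.9, 44.1 and 36.5 CPM in NTG and 34.3, 19.3, 23.6 and 23.1 CPM in TMEM43-WT, with no overlap and a log2 fold change of -0.74 (SE 0.22, edgeR adjusted p = 0.0462). The call was close to the threshold and was lost without any 1 of NTG replicates 2 and 3, TMEM43-WT replicates 4, 5 and 6, TMEM43-P111L replicates 3 and 4 or TMEM43-S358L replicates 1 and 2, with adjusted p from 0.0507 to 0.13. The mutant libraries among these are not in this comparison and enter only through quantities shared over all libraries, such as the spread. The call was also lost with age as a covariate (-0.59, adjusted p = 0.0660). Without NTG replicate 4, ndufaf3 was called as well. At an unadjusted p under 0.05 stood 11 of 101 genes (10.9%), beside 24.7% of all genes.

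**Figure D4:**
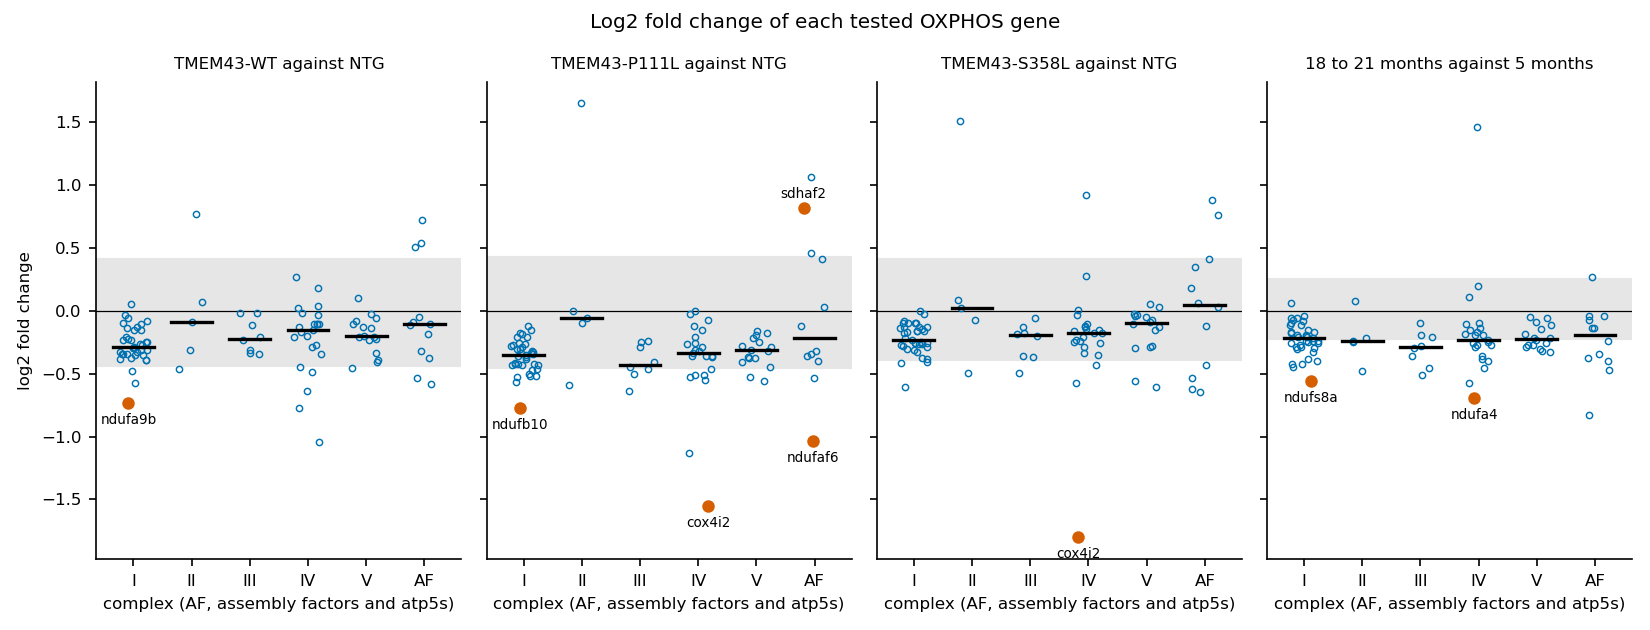
Log2 fold change of each of the 101 tested genes in the 3 comparisons with NTG and between the age groups, by complex (AF, assembly factors and atp5s); filled points are called genes, horizontal bars are medians and the grey band spans the middle 50% of all tested genes. Most subunits lie below 0, inside the band in the comparisons with NTG and around its lower edge for age, with medians of the complexes from -0.43 to 0.02, and few are called.

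The subunits lay slightly lower in TMEM43-WT as a whole. This fit had no term for age, and the ages were 5, 18, 20 and 19 months in TMEM43-WT against 5, 5 and 21 in NTG. Genotype and age are thus partly mixed in this shift, and its median with age as a covariate is not given here. The log2 fold change was below 0 in 81 of 89 subunits (91.0%; 50.8% of all genes), with a median of -0.22 against -0.01 for all genes. The medians were -0.29 in complex I, -0.09 in complex II, -0.22 in complex III, -0.15 in complex IV and -0.20 in complex V. Only 2 subunits were lower without overlap (2.25%; 11.1% of all genes), ndufa9b and cox7a1. The muscle form cox7a1 was at 1197, 1072 and 1095 CPM in NTG and at 1064, 749, 786 and 593 CPM in TMEM43-WT, a log2 fold change of -0.49 (SE 0.20, adjusted p = 0.144) that was not called.

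In the other complexes the smallest p belonged to sdhaf4, an assembly factor of complex II (log2 fold change -0.58, adjusted p = 0.0836), cox6b1 (-0.64, 0.107), atp5s (-0.38, 0.201) and uqcrq (-0.34, 0.360). Among the subunits of complexes II and V it belonged to sdhc, a membrane anchor (-0.46, 0.186), and atp5c1, the central gamma subunit of ATP synthase (-0.46, 0.203). The level of cox6b1 was 1137, 1077 and 1165 CPM in NTG and 1156, 547, 651 and 547 CPM in TMEM43-WT, so that TMEM43-WT replicate 1, from 5-month-old fish, sat within NTG and the 3 libraries of 18 to 20 months lay below all NTG libraries. The comparison depended largely on replicate 1, which made the difference from NTG smaller. Without replicate 1 the median of the subunits was -0.42 and 8 genes were called, beside 1145 of all genes: sdhc, ndufa6, atp5c1, ndufa7, ndufa9b, sdhaf4, cox7b and cox6b1. The remaining TMEM43-WT libraries were all of 18 to 20 months, an age that NTG replicate 4, at 1165 CPM of cox6b1, alone represented among the controls. Without TMEM43-WT replicate 6 the median was -0.12.

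Against NTG, TMEM43-P111L called 4 of 101 genes, 3 lower and 1 higher, where 7.59% of all genes were called (4.25% lower and 3.34% higher). The lower ones were cox4i2, ndufb10 and ndufaf6, and the higher one was sdhaf2. At an unadjusted p under 0.05 stood 18 genes (17.8%), beside 23.6% of all genes. The count rested on single libraries: 2 genes were called without NTG replicate 2, NTG replicate 3 or TMEM43-P111L replicate 3, 1 without NTG replicate 4 and 0 without TMEM43-P111L replicate 2 or 4. The share of all genes called in these fits is not given here. Scaled to the summed subunit reads, 3 were called, all higher (sdhda, sdhaf2 and ndufaf7).

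The complex IV gene cox4i2 (chromosome 23, 18944496 to 18951148, plus strand) was at 29.4, 79.7 and 45.9 CPM in NTG, 11.8, 23.9 and 17.1 CPM in TMEM43-P111L, 7.13, 20.4, 14.5 and 17.3 CPM in TMEM43-S358L and 30.5, 38.2, 28.3 and 23.6 CPM in TMEM43-WT. Both mutant lines lay below all NTG libraries, and TMEM43-WT overlapped NTG. Against NTG, the log2 fold change was -1.55 (SE 0.39, adjusted p = 0.0274) in TMEM43-P111L and -1.80 (SE 0.36, adjusted p = 0.0105) in TMEM43-S358L, and it was -0.78 (SE 0.36, adjusted p = 0.190) in TMEM43-WT. These comparisons share the 3 NTG libraries, of which replicate 3 had the highest level of all. Without it the TMEM43-P111L value was -1.098 (adjusted p = 0.116) and no longer called, as also without TMEM43-P111L replicate 2 (adjusted p = 0.0938) or 4 (0.0934). In TMEM43-S358L the call stood without any 1 library (adjusted p from 0.00671 to 0.0494), and among the libraries of 5 months alone the value was -1.96 (adjusted p = 0.161).

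The accessory complex I subunit ndufb10 (chromosome 3, 18405185 to 18410954, minus strand), part of the membrane arm, was at 561, 495 and 586 CPM in NTG and at 277, 365 and 320.0 CPM in TMEM43-P111L. All TMEM43-P111L libraries were lower, with a log2 fold change of -0.77 (SE 0.20, adjusted p = 0.0307). The call was lost without any 1 of NTG replicates 2, 3 and 4 and TMEM43-P111L replicates 2 and 4 (adjusted p from 0.0534 to 0.102). In TMEM43-S358L the level was 410.4, 315, 401 and 311 CPM, also below every NTG library but not called (-0.61, adjusted p = 0.0643), and in TMEM43-WT it was 499, 351, 395 and 326 CPM (-0.48, adjusted p = 0.121).

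The assembly factors called in TMEM43-P111L went in opposite directions. The complex I assembly factor ndufaf6 (chromosome 16, 40487726 to 40508639, minus strand), needed in human cells to make the ND1 subunit, was at 15.2, 33.2 and 28.1 CPM in NTG and at 14.0, 11.1 and 12.2 CPM in TMEM43-P111L, with a log2 fold change of -1.03 (SE 0.28, adjusted p = 0.0345). The call was lost without any 1 of NTG replicates 3 and 4 or any TMEM43-P111L library (adjusted p from 0.0608 to 0.146). The complex II assembly factor sdhaf2 (chromosome 7, 13354627 to 13362571, minus strand), which in yeast and human cells is needed to attach the flavin to the SDHA subunit, was at 32.6, 45.8 and 28.8 CPM in NTG and at 60.7, 70.0 and 58.1 CPM in TMEM43-P111L, with a log2 fold change of 0.82 (SE 0.22, adjusted p = 0.0347). All TMEM43-P111L libraries were higher, and the call was lost without any 1 of NTG replicates 2 and 4 or any TMEM43-P111L library (adjusted p from 0.0657 to 0.107).

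**Figure D5:**
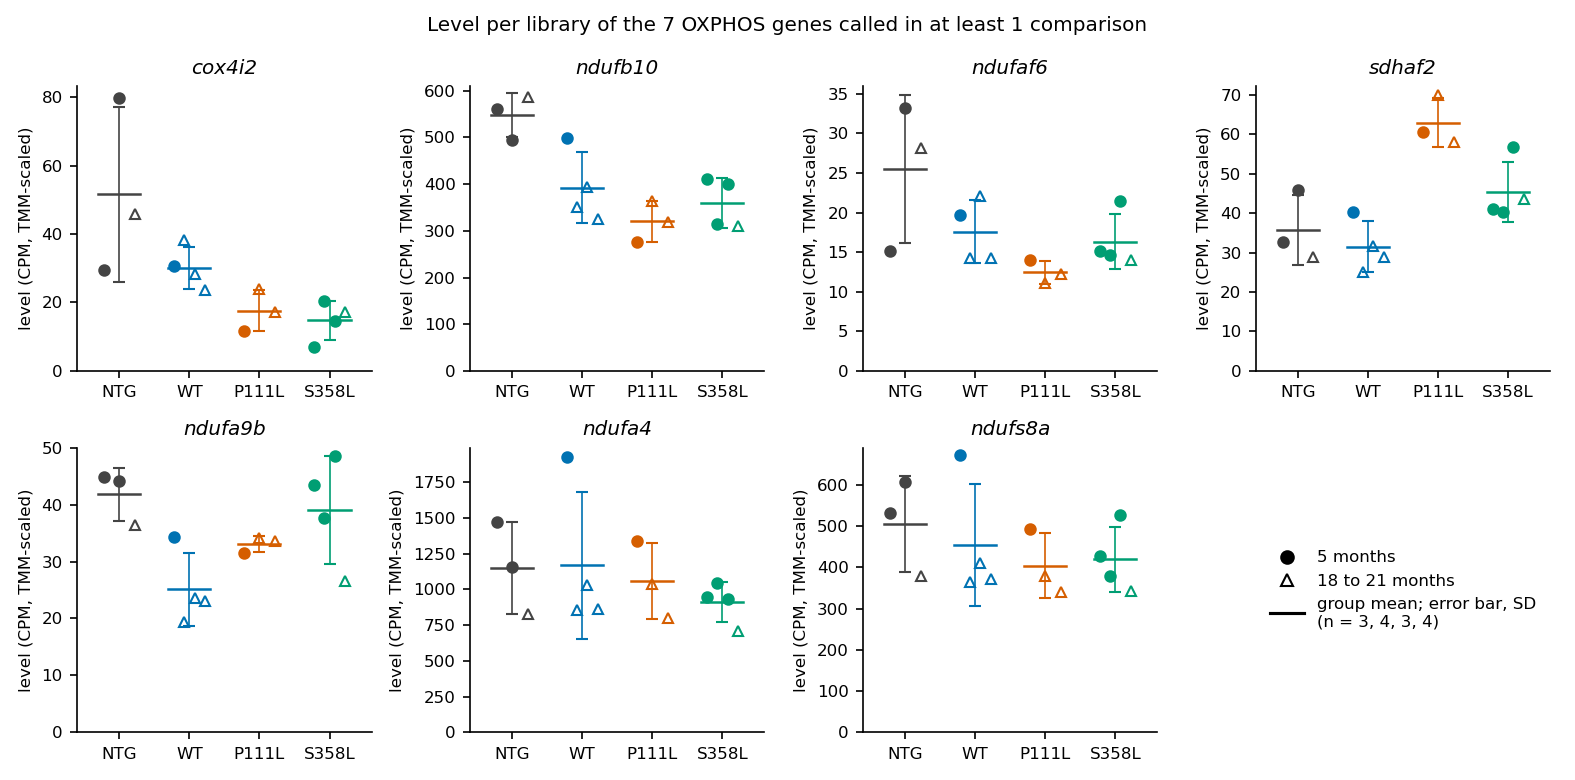
Level in CPM (scaled by TMM, from 0) of the 7 genes called in at least 1 comparison, in every library; the horizontal line is the group mean and the bar 1 SD, and filled circles are libraries of 5 months, open triangles of 18 to 21 months. The cox4i2 levels of TMEM43-P111L and TMEM43-S358L lie below all NTG libraries, sdhaf2 is highest in TMEM43-P111L, and the 5-month TMEM43-WT library stands above the others of its line in ndufa4 and ndufs8a.

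In TMEM43-P111L nearly all subunits lay lower than in NTG. Age was not in this fit either, and the ages were 5, 20 and 19 months in TMEM43-P111L against 5, 5 and 21 in NTG. The log2 fold change was below 0 in 88 of 89 (98.9%; 50.2% of all genes), the exception being sdhda, and the median was -0.34 against -0.003 for all genes. The middle 50% of the subunits ran from -0.45 to -0.25, while that of all genes ran from -0.46 to 0.43. Without overlap between the groups 47 of 89 subunits were lower (52.8%; 14.3% of all genes), and 2 of them were called, cox4i2 and ndufb10. The subunits varied together over the libraries, so the 88 and the 47 genes are not that many separate results. The same holds for such counts of subunits in the other comparisons. The medians were -0.35 in complex I, -0.06 in complex II, -0.43 in complex III, -0.34 in complex IV and -0.32 in complex V, smallest in size in complex II. Scaling to the summed subunit reads, which by construction sets the subunits near 0, moved the median of all genes to 0.32 here, 0.28 in TMEM43-WT and 0.19 in TMEM43-S358L against NTG, and left the subunits at -0.04, -0.003 and 0.001. The median of the subunits was -0.46 without TMEM43-P111L replicate 3, which had the highest subunit level of its line.

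No subunit of complexes II, III and V was called in TMEM43-P111L. Among the subunits the smallest p in complex II belonged to sdhda, at 3.30, 0.512 and 2.60 CPM in NTG and 4.64, 9.15 and 6.38 CPM in TMEM43-P111L (log2 fold change 1.65, SE 0.59, adjusted p = 0.0992), higher in every library but at a level of few reads. In complex III it was uqcr10, a small subunit, at 679, 735 and 718 CPM in NTG and 434, 530.1 and 406 CPM in TMEM43-P111L (-0.64, SE 0.24, adjusted p = 0.113). In complex V it was atp5f1, of the peripheral stalk, at 1924, 1780.0 and 1785 CPM in NTG and 1003, 1553 and 1253 CPM in TMEM43-P111L (-0.53, SE 0.24, adjusted p = 0.195). The latter 2 genes were lower in every TMEM43-P111L library. Besides sdhda and sdhaf2, the complex I assembly factors ndufaf4 and ndufaf7 were higher without overlap, which made 4 of 101 genes (12.7% of all genes), neither of them called (0.41, adjusted p = 0.3202; 1.06, adjusted p = 0.0574).

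Against NTG, TMEM43-S358L called 1 of 101 genes, cox4i2 as given above, where 6.15% of all genes were called (3.48% lower). At an unadjusted p under 0.05 stood 11 genes (10.9%), beside 22.6% of all genes, and DESeq2 called 5, beside 1950 of all genes, adding ndufb10, sdhda, ndufaf7 and ndufaf3. The log2 fold change was below 0 in 81 of 89 subunits (91.0%; 49.6% of all genes), with a median of -0.17 against 0.005 for all genes. Age had no term in this fit either. By complex the medians were -0.23 in I, 0.02 in II, -0.20 in III, -0.18 in IV and -0.10 in V. Lower without overlap were 20 subunits (22.5%; 10.1% of all genes), and 1 was higher (9.13% of all genes), sdhda, at 4.78, 5.17, 6.995 and 7.44 CPM (1.51, SE 0.56, adjusted p = 0.121).

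In complexes I, V and III the smallest p belonged to ndufb10 (above), atp5ia and uqcrc2a. The subunit e gene atp5ia was at 232, 298 and 272 CPM in NTG and at 167, 191, 153 and 191 CPM in TMEM43-S358L, lower in every library (log2 fold change -0.61, SE 0.22, adjusted p = 0.108). Its paralogue atp5ib was at 658, 634 and 584 CPM in NTG and 635, 518, 613 and 479 CPM in TMEM43-S358L, with overlap (-0.16, adjusted p = 0.693). The core protein gene uqcrc2a was at 463, 479 and 438 CPM in NTG and at 377, 284, 393 and 251 CPM in TMEM43-S358L (-0.50, SE 0.23, adjusted p = 0.202), while its paralogue uqcrc2b had a log2 fold change of -0.20 with overlapping groups. The c-ring subunit gene atp5g1 had a log2 fold change of -0.56 against NTG in each mutant line and was lower in every mutant library, but not called (adjusted p = 0.197 in TMEM43-P111L and 0.170 in TMEM43-S358L). Leaving out TMEM43-WT replicate 1, which bears on the spread only, called ndufb10 and atp5ia as well, 3 genes in all, and leaving out NTG replicate 4 or TMEM43-S358L replicate 2 called ndufaf3 as well, 2 in all. The share of all genes called in these fits is not given here.

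Between the transgenic lines few members were called. TMEM43-P111L against TMEM43-WT called 1 of 101 genes (0.826% of all genes, 0.264% higher), sdhaf2, at 40.4, 25.2, 31.6 and 28.9 CPM in TMEM43-WT and at the TMEM43-P111L levels given above. Its log2 fold change was 0.998 (SE 0.20, adjusted p = 0.0253), with no overlap, and the call was lost without any 1 of TMEM43-WT replicates 4, 5 and 6 or any TMEM43-P111L library (adjusted p from 0.0579 to 0.116). The libraries of 18 to 21 months alone also gave this call. At an unadjusted p under 0.05 stood 4 genes, 3.96% beside 10.2% of all genes. Lower without overlap were ndufaf6 and cox5b1 (1.98%; 5.55% of all genes) and higher sdhaf2 (5.25% of all genes). In complexes IV, III, I and V the smallest p belonged to cox5b1 (-1.40, adjusted p = 0.408), uqcr10 (-0.53, 0.418), ndufaf6 (-0.50, 0.558) and atp5ia (-0.39, 0.608). The subunits lay below 0 in 75 of 89 (50.3% of all genes) with a median of -0.11, which turned to 0.09 without TMEM43-WT replicate 1, to 0.18 among the libraries of 18 to 21 months and to 0.01 with total reads in place of TMM.

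TMEM43-S358L against TMEM43-WT called 0 of 101 genes in edgeR (1.62% of all genes), with 6 at an unadjusted p under 0.05 (12.4% of all genes) and 1 called by DESeq2 (672 of all genes), atp5ia. That gene was at 426, 255, 275 and 194 CPM in TMEM43-WT, each above the highest TMEM43-S358L library (-0.71, SE 0.21, adjusted p = 0.104), and was called without TMEM43-WT replicate 6. Lower without overlap were also cox4i2 (-1.03, adjusted p = 0.171) and uqcrh, the hinge protein of complex III (-0.35, adjusted p = 0.427), 3 subunits in all (3.37%; 4.97% of all genes), and 0 were higher (3.83% of all genes). In complexes I and II the smallest p belonged to ndufa9b (0.64, adjusted p = 0.149) and the assembly factor sdhaf2 (0.53, 0.228). Age had no term in this fit, with 5, 5, 5 and 19 months in TMEM43-S358L against 5, 18, 20 and 19 in TMEM43-WT. Genotype and age are thus partly mixed in this comparison too. The subunits lay above 0 in 56 of 89 (50.3% of all genes) with a median of 0.05, which was -0.06 without TMEM43-WT replicate 6, -0.04 without TMEM43-WT replicate 4, -0.02 without TMEM43-S358L replicate 1 and -0.01 without TMEM43-S358L replicate 3, against 0.25 without TMEM43-WT replicate 1.

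TMEM43-S358L against TMEM43-P111L called 0 of 101 genes in edgeR (1.04% of all genes) and 0 in DESeq2, with 1 at an unadjusted p under 0.05 (9.57% of all genes). In this comparison 81 of 89 subunits lay above 0 (50.1% of all genes) with a median of 0.15, and the highest and lowest fits without 1 library gave 0.27 and 0.07. Age had no term in this fit. The ages were 5, 5, 5 and 19 months in TMEM43-S358L against 5, 20 and 19 in TMEM43-P111L. Genotype and age are thus partly mixed in this shift, and the part of age was not tested. The smallest p belonged to the assembly factor sdhaf2 (-0.47, SE 0.20, adjusted p = 0.449), followed by the subunit atp5f1 (0.47, SE 0.23, adjusted p = 0.529). Without overlap, atp5g3a and ndufaf6 were higher (4.97% of all genes) and atp5ia and sdhaf2 lower (4.82% of all genes) in TMEM43-S358L.

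Between 18 to 21 months and 5 months, with genotype as a covariate, 2 of 101 genes were called, both lower, where 0.969% of all genes were called (0.556% lower). The gene ndufa4 (chromosome 12, 9880814 to 9884326, plus strand) had a lowest, median and highest level of 933, 1155 and 1929 CPM at 5 months and of 712, 855 and 1041 CPM at 18 to 21 months (n = 7 each). The age groups overlapped, and the highest value was that of TMEM43-WT replicate 1. With genotype accounted for, ndufa4 had a log2 fold change of -0.69 (SE 0.14, adjusted p = 0.0340). Its paralogue ndufa4l, at the higher level per kb, had a log2 fold change of -0.14, and held 65.8% to 77.9% of the family at 5 months and 73.9% to 79.5% at 18 to 21 months.

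The gene ndufs8a (chromosome 1, 44814364 to 44823067, plus strand), a core iron-sulphur subunit of complex I, had a lowest, median and highest level of 379, 527 and 672 CPM at 5 months and of 340.4, 371 and 410.3 CPM at 18 to 21 months. The groups overlapped only through TMEM43-S358L replicate 2, the lowest of the 5-month libraries. For ndufs8a the log2 fold change was -0.56 (SE 0.13, adjusted p = 0.0472). Leaving out any 1 of 13 libraries ended this call, all but NTG replicate 2, with adjusted p up to 0.209 without TMEM43-WT replicate 1. The call of ndufa4 was lost without any 1 of 9 libraries, NTG replicate 4, each TMEM43-WT library, TMEM43-P111L replicates 2 and 4 and TMEM43-S358L replicates 2 and 4, with adjusted p from 0.0501 to 0.139.

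At an unadjusted p under 0.05 stood 25 of 101 genes (24.8%; 13.5% of all genes), 24 of them lower. Without overlap 2 subunits were lower at 18 to 21 months (2.25%; 0.373% of all genes), uqcrc1 and ndufv1, and 0 were higher (0.367% of all genes). The core protein gene uqcrc1 had a lowest, median and highest level of 795, 949 and 1118 CPM at 5 months and of 572, 704 and 786 CPM at 18 to 21 months (-0.51, SE 0.13, adjusted p = 0.0702). The gene ndufv1, for the NADH-binding flavoprotein of complex I, was at 637, 778 and 874 CPM at 5 months and at 557, 563 and 627 CPM at 18 to 21 months (-0.45, SE 0.11, adjusted p = 0.0770). In complex II the smallest p belonged to sdhdb (-0.48, adjusted p = 0.0574), and in complex V to atp5ib (-0.30, 0.327). DESeq2 called 7 genes for age, beside 581 of all genes, adding uqcrc1, uqcrc2b, sdhdb, ndufv1 and sdhaf1.

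The log2 fold change for age was below 0 in 84 of 89 subunits (94.4%; 49.7% of all genes), with a median of -0.24 against 0.002 for all genes and -0.05 for genes averaging 50 CPM or more. The medians were alike in the complexes, -0.22 in I, -0.24 in II, -0.29 in III, -0.24 in IV and -0.23 in V. The nuclear genes for core subunits of complex I numbered 8, as both paralogues ndufs8a and ndufs8b were counted. The 7 tested ones, without ndufs8b, had a median of -0.30 and the 30 accessory subunit genes -0.20. These medians rested on TMEM43-WT replicate 1. Without it the median of the subunits was -0.03 and 0 genes were called in edgeR, with 9 at an unadjusted p under 0.05, and without TMEM43-P111L replicate 2, the only 5-month library of its line, it was -0.36. Besides ndufa4 and ndufs8a, sdhdb and ndufa4l2a were called without NTG replicate 2. The shares of all genes in these fits without 1 library are not given here. Their counts therefore do not show whether calls moved in the members alone. A lower age median was not particular to the subunits. Over all libraries it was -0.34 in cytochrome c and ubiquinone synthesis, -0.33 in the tricarboxylic acid cycle and -0.21 in outer membrane and carrier genes. It ran from -0.18 to -0.12 in the further assembly lists described below, and was 0.04 in regulators of mitochondrial biogenesis.

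The age difference was set beside genotype in an interaction test. It called 0 of 101 genes in edgeR (0.00573% of all genes), with a lowest adjusted p of 0.724, and at an unadjusted p under 0.05 stood 22 genes (21.8%; 6.75% of all genes). The smallest unadjusted p from edgeR was that of cox6b1, at 0.00419. The lines differed in where their 5-month library lay: it was the highest of its line in the summed subunits in TMEM43-WT, at 88166 CPM, and the lowest of its line in TMEM43-P111L, at 53795 CPM. Each of these 2 values is 1 pool. NTG at 21 months and TMEM43-S358L at 19 months were also 1 pool each. In every genotype the age difference thus rested on 1 pool at 1 of the ages. The subunits also varied together, so the 22 genes are not 22 separate results.

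Genes that build or feed the complexes but lie outside the naming rule were taken from lists of their own. Of all tested genes, 3.48% were called lower in TMEM43-S358L and 4.24% in TMEM43-WT against NTG, and 0.556% with age. In either direction 1.62% were called in TMEM43-S358L against TMEM43-WT and 1.04% against TMEM43-P111L. The small counts in these lists were not tested against such shares. Of 8 other complex I assembly genes tested, 1 was called lower in TMEM43-S358L against NTG, nubpl, an iron-sulphur carrier protein for complex I (log2 fold change -1.15, SE 0.25, adjusted p = 0.0132), and 0 in TMEM43-WT and TMEM43-P111L. Of 25 complex IV assembly genes, 1 was called lower in TMEM43-S358L, cox14, at -1.37 against NTG (adjusted p = 0.0026), -0.84 against TMEM43-WT (adjusted p = 0.0498) and -0.96 against TMEM43-P111L (adjusted p = 0.0455). Of 6 complex III assembly genes 1 was called lower in TMEM43-WT against NTG, uqcc3 (-0.71, adjusted p = 0.0475), and of 6 complex V assembly genes 0 in any comparison. With age, cox10, for heme synthesis of complex IV, was called lower (-0.75, adjusted p = 0.0221), as was idh3a (-0.53, adjusted p = 0.0398), for a subunit of isocitrate dehydrogenase in the tricarboxylic acid cycle. Of 18 tested genes of that cycle 2 were called lower with age, idh3a among them.

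Of 12 genes of cytochrome c and ubiquinone synthesis 0 were called in any comparison. Of 21 regulators of mitochondrial biogenesis, lonp1, a protease of the mitochondrial matrix, was called higher against NTG in TMEM43-WT (log2 fold change 1.102), TMEM43-P111L (1.35) and TMEM43-S358L (1.19), and hif1aa, a subunit of the oxygen-sensing HIF factor, lower in TMEM43-WT (-1.71, adjusted p = 0.000611). Against TMEM43-WT, hif1aa was called higher in TMEM43-P111L (1.08, adjusted p = 0.0273) and TMEM43-S358L (1.14, adjusted p = 0.0104). Of 17 genes of the outer membrane and the adenine nucleotide carriers, tomm40l was called higher in TMEM43-WT (0.96) and TMEM43-P111L (0.92) and tomm40 higher in TMEM43-WT (0.66), both for the channel of protein import. In the tricarboxylic acid cycle ogdhb was called higher in TMEM43-S358L (1.38, adjusted p = 0.0395). For scale, the genes called higher against NTG among all 17437 tested numbered 467 for TMEM43-S358L, 583 for TMEM43-P111L and 714 for TMEM43-WT. Against TMEM43-WT they numbered 115 for TMEM43-S358L and 46 for TMEM43-P111L. The list counts were not tested against these numbers.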

How the data were processed

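Ventricular RNA of 14 pools was sequenced from stranded mRNA libraries. Per the labels and the study's methods the authors used Cutadapt 2.5 for trimming, STAR 2.7.2b for alignment to GRCz11 and featureCounts 1.6.4 for counting per gene. The deposited values are estimated counts per gene, fractional where a read was divided between features, and were rounded to whole numbers before testing. How reads on several places and strands were treated is not given in the sources used here.

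Genes were filtered by filterByExpr and tested with edgeR 4.0.16 (R 4.3.3) by the quasi-likelihood test with TMM scaling and genotype as sole factor over all 14 libraries. Age was tested as 18 to 21 against 5 months, with genotype as covariate, and p-values were adjusted by Benjamini-Hochberg over 17437 genes in each of 7 comparisons. The 3 comparisons with NTG share their controls. Alternatives were DESeq2 1.42.0, other scalings and filters, a replicate block, age as covariate and leaving out each library. The code was tested on simulated data. Members and lists were chosen with earlier results of these data known. Named were all called members, otherwise the smallest p per complex, the highest and lowest level per complex, the complex IV paralogues, and further genes chosen after their values were seen. The human transgene was not analysed here. Not every result of the tricarboxylic acid cycle list is reported here. Total reads per library ran from 20621770 to 32418475, and 85 members had at least 1000 reads in every library.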

Additional observations from a re-analysis of the deposited data

Results flagged for a closer look

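These are values in which 1 library stood apart from the others of its genotype or age group by Dixon's criterion. Chance meets it in about 1 of 20 groups of like libraries. The age groups mix genotypes, so that rate does not hold for them. Of the genotypes only TMEM43-WT and TMEM43-S358L were screened, not NTG and TMEM43-P111L. How many groups were screened is not given here. The causes of the values below were not tested.

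Among gene levels, cox4i2 was at 79.7 CPM in NTG replicate 3, against 7.13 to 30.5 CPM in the other 5-month libraries, and ndufaf6 at 33.2 CPM in the same library, against 14.0 to 21.5 CPM. In TMEM43-WT replicate 1, ndufa4 was at 1929 CPM and ndufs8a at 671.7 CPM, against at most 1029 and 410.3 CPM in the other TMEM43-WT libraries. In TMEM43-S358L replicate 3, ndufaf6 was at 21.5 CPM against 14.0 to 15.2 CPM in the rest of the line. In NTG replicate 4, ndufb10 was at 586 CPM, against 311 to 395 CPM in the 6 transgenic libraries of 18 to 21 months. NTG replicates 2 and 3, of 5 months, were at 561 and 495 CPM of ndufb10.

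Among paralogue shares, NTG replicate 3 had 1.66% cox4i2 and 99.7% cox5b2, against 0.146% to 0.531% and 99.9% to 100% in the other 5-month libraries. TMEM43-WT replicate 1 had 65.8% ndufa4l (others of its line 73.9% to 74.5%), 50.8% ndufab1a (46.4% to 46.7%) and 91.9% ndufa9a (86.2% to 88.1% in the other 5-month libraries). TMEM43-WT replicates 4, 5 and 6 had 91.9%, 92.2% and 89.9% ndufa9a, so this last value stood apart from its age group but not from its line. TMEM43-WT replicate 4 had 62.4% cox5aa, against 66.0% to 68.7% in the other libraries of 18 to 21 months, TMEM43-WT replicate 6 had 89.9% ndufa9a (91.9% to 92.2% in its line), and TMEM43-S358L replicate 3 had 48.6% cox6b1 (53.7% to 54.7% in its line).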

How the results depend on the processing

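The genes called kept their direction under every setting run, while their counts and some medians, with sign, moved. Most counts of members under single settings, here and above, stand without the share of all genes called. They therefore do not show whether calls moved in the members alone. The 2 calls for age became 7 in DESeq2, 1 with either other filter or with age as a number, 0 scaled to the subunit reads, 0 without both libraries with the lowest TMM factors, and 0 to 4 without 1 library. Against NTG, TMEM43-S358L went from 1 call to 5 in DESeq2, 3 with total reads, 2 with age as covariate, 0 among 5-month libraries and 1 to 3 without 1 library. TMEM43-WT went from 1 call to 5 with total reads, 7 without both libraries with the lowest TMM factors, 0 with no filter or with age as covariate, and 0 to 8 without 1 library. TMEM43-P111L went from 4 calls, 3 of them lower, to between 0 and 5 without 1 library, 6 in DESeq2 (3 higher and 3 lower) and 3 scaled to the subunit reads (all higher, without cox4i2, ndufb10 and ndufaf6). For TMEM43-P111L against TMEM43-WT this range was 0 to 1, as it was for TMEM43-S358L against TMEM43-WT, where DESeq2 called 1. The median log2 fold change of the subunits without 1 library ran from -0.36 to -0.03 for age, -0.46 to -0.28 for TMEM43-P111L against NTG (-0.039 scaled to the subunit reads) and -0.23 to 0.09 for TMEM43-P111L against TMEM43-WT (0.18 at 18 to 21 months alone). The cause of these shifts was not tested, apart from the subunit scaling, which removes a common shift by construction.

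Replicate numbers shared between groups did not pair the libraries, with correlations of same-numbered deviations from -0.228 to 0.264. A replicate block gave 0 calls for age, for TMEM43-WT against NTG and for TMEM43-P111L against TMEM43-WT, and an age median of 0.17, which rests on replicate 3 alone because replicates 1 and 2 are all of 5 months and 4 to 6 all older. The SD of the median subunit level within genotypes was 0.254 on the log2 scale, more than the shift of the subunits in every comparison but TMEM43-P111L against NTG (-0.34). That SD is the spread of single libraries of both ages, so it includes age differences. It is not the error of a difference between group means, and does not show whether a shift exceeds that error. Genes under 10 CPM such as sdhda and cox5b1 also carry counting error. The settings with total reads, subunit scaling and both low-TMM libraries left out were chosen after seeing the data.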
